A study of Homo sapiens with 26 samples.

Results

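Cytosolic translation initiation and elongation factors were taken as the protein-coding genes whose symbol begins with EIF or EEF followed by a digit and whose coding sequence held at least 64 footprints in each of the 6 total inputs of ribosome profiling. Of 71 genes with such a symbol, 45 met the minimum, out of 6434 protein-coding genes that met it in the whole series. Another 11 genes, among them EIF4A1, EIF6 and EEF1G, were counted in entries that hold several genes and could not be given a value of their own. The other 15 fell below the minimum, with 0 footprints in the lowest total input for EIF3E, 25.8 for EIF4G1, 32 for EIF4H, 51 for EIF2B5 and 59.9 for EIF1AD just outside it. Just inside it were EIF5A2 with 64.6 footprints, EEF1A2 with 69 and EIF2B4 with 83.5.

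The samples are HEK293T cells, a human embryonic kidney line, in which the ribosomal protein RPL29 carries an Avi tag at its own locus, so that the light-gated biotin ligase LOV-BirA biotinylates ribosomes near it. Ribosome profiling was done on cells with LOV-BirA at the endoplasmic reticulum (ER), at the outer mitochondrial membrane (OMM) or in the cytosol, each as a total input and a streptavidin pulldown of the same lysate, with 2 replicates. RNA-seq of intact mRNA was done on cells with LOV-BirA at the OMM that were wild type, AKAP1 null or LARP4 null, again as total input and pulldown in 2 replicates, and once in cells that received no cycloheximide (no CHX). All other groups had cycloheximide, for the null lines by the study's general protocol. Each null genotype is 1 clonal line made with Cas9 and the wild type carries a negative control guide RNA, whereas the LOV-BirA lines are polyclonal and lentiviral. Levels of a gene are given as CPM, footprints or read pairs scaled to a common library total, and enrichment means log2 pulldown/total throughout, and "higher" and "lower" mark an adjusted p below 0.05 over all genes tested by edgeR's quasi-likelihood test.

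Initiation factors bring the initiator tRNA, the mRNA cap and the small ribosomal subunit together, scan to a start codon and join the large subunit, after which elongation factors deliver aminoacyl-tRNAs and move the ribosome along the mRNA. Most are soluble proteins of the cytosol, made by cytosolic ribosomes, and several elongation factor mRNAs, together with those of ribosomal proteins, begin with a 5′ terminal oligopyrimidine (TOP) tract through which the mTOR pathway controls their translation. AKAP1 is an RNA-binding anchor protein of the OMM, and LARP4 is an RNA-binding protein that stabilises poly(A) tails.

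Coding footprints per library ran from 1025114 to 19539527, the lowest being an OMM pulldown, and read pairs on genes ran from 38347615 to 100840544. The total input of cytosol replicate 2 stood apart, with a correlation of 0.896 to 0.906 with the other 5 ribosome profiling total inputs, and the enrichments of the 2 cytosol lysates correlated at 0.605, against 0.870 at the OMM and 0.982 at the ER. LARP4 null replicate 2 also stood apart, with enrichments that correlated at 0.617 to 0.755 with those of the other RNA-seq lysates. AKAP1 was at 32.2 and 20.3 mRNA CPM in AKAP1 null total inputs against 114.5 and 119.5 in wild type, and LARP4 at 79.3 and 74.0 in LARP4 null against 225 and 231. VIM, KRT18, NEFL and NEFM, known in HEK293T, were found in every RNA-seq total input, VIM at 442 to 692 CPM. KRT8 (3.88 to 20.3 CPM) and PAX2 (5.25 to 10.3 CPM), also looked for as markers of HEK293T, were low there. The markers of blood (PTPRC), liver (ALB), endothelium (PECAM1) and heart muscle (MYH7) were at or near 0. COL1A1, a marker of fibroblasts, was at 7.16 to 23.1 CPM in total inputs, and its part in any result was not tested. These are bulk samples, in which fewer cells and less RNA per cell cannot be told apart.

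The factors differed widely in how much of their coding sequence could be counted. By the study's methods, positions to which reads cannot align uniquely were left out, and the cause of each low share was not tested. EIF2B4 (22.9%) and EIF2S3 (30.6%) had low shares and 0 named pseudogenes. The count of pseudogenes leaves out genes such as EIF2S3B, which has the coding length of EIF2S3 (1416 nucleotides) and a countable share of 31.8%. A median of 64.1% of the coding length was countable against 86.9% over all genes with the minimum, and 12 of the 45 had under 25%. EEF1B2, a subunit of the exchange factor of eEF1A, had 3.70%, or 25 countable nucleotides, and EEF1A1, the main tRNA carrier of elongation, had 12.4% and 49 genes named as its pseudogenes. EIF4B had 9 named pseudogenes, EEF1B2 and EEF1D 8 each, and EIF1 and EIF2S2 7 each, and reads of such genes may be split among near-identical copies. EIF2A (9.80%), EEF1A2 (11.7%), EIF3M (15.7%) and EIF3F (15.97%) also had low countable shares.

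Footprint densities of the factors spanned a wide range in the OMM total inputs. EEF1A1 reached 6236 ± 1803 RPKM (reads per kb, scaled to library size, mean ± SD, n = 2), EEF2, which moves the ribosome along, 1572 ± 333, and EIF5A, which eases the joining of proline and other slow residues, 1388 ± 68.8. EIF1, which guards start codon choice, followed at 912 ± 218, and these 4 lay at or above percentile 97.7 of all genes. At the low end stood 2 kinases of translation factors, EIF2AK4 at 7.29 ± 0.05 RPKM and EEF2K at 4.87 ± 0.73. By mRNA density in wild-type total inputs EEF2 was first with 684 ± 19.7 FPKM (the same for fragments of mRNA), ahead of EIF5A with 285 ± 22.0 and EEF1A1 with 285 ± 78.3. The order of EIF5A and EEF1A1 by mRNA was within their spread. These densities divide by the whole gene model, and per kb of coding sequence EEF1A1 (2067 ± 569), EIF1 (1499 ± 54.1) and EIF5A (1372 ± 106) stood above EEF2 (1069 ± 30.7). The near-duplicates EEF1A2 and EIF5A2, the forms used in fewer tissues, were far below their partners, at 35.6 ± 0.75 and 37.2 ± 8.07 RPKM.

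The first bases of the mRNAs are shown because several elongation factor mRNAs are known for a pyrimidine tract there. Each line gives the sense strand from 8 bases before to 12 bases after the RefSeq start (GRCh38.p14), with capitals for a run of at least 5 C or T that begins with C within 3 bases of that start.
EEF1A1 (chr6:73521021-73521040, minus strand): tgaacgttCTTTTTCgcaac
EEF2 (chr19:3985452-3985471, minus strand): tcagcgttCTCTTCCgccgt
EIF4B (chr12:53006448-53006467, plus strand): atccgggtCTTTTgcgttct
EIF3F (chr11:7987329-7987348, plus strand): tccgcCTCCTTCTTTCTCga
EEF1B2 (chr2:206159601-206159620, plus strand): gtggccccagcctcgaggcc
Of the 36 factors with an entry in the table, 15 had such a run (41.7%) against 4574 of 35116 promoters in all (13.03%). These sets are unlike, since factors were counted by gene and the larger set holds every listed promoter, not limited to genes measured here. The difference in share therefore cannot be read as particular to the factors. Of the 7 factors commonly listed as TOP mRNAs (EEF1A1, EEF1B2, EEF1D, EEF2, EIF3F, EIF3H and EIF4B), 5 had an entry and 4 had the run, and EEF1B2 had none in this window. The run is a description of letters, and annotated starts may differ from those used in these cells.

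In the total input of cytosol replicate 2 the factors were mostly low. The value there lay below all other 5 total inputs for 23 of 45 factors (51.1%) and above them for 9 (20%), whereas over all genes with the minimum 27.7% lay below and 41.4% above. EEF1A1 had 394 footprint CPM there and 1775 to 2772 in the others. EIF5, the GTPase activator of eIF2, had 145 against 342 to 529.6, and EIF3M 32.5 against 90.7 to 149.7. In the other direction EIF4EBP1, an inhibitor of the cap-binding protein eIF4E, had 901 against 180 to 214, EEF1A2 100.5 against 13.6 to 20.8 and EEF2K 71.8 against 17.2 to 27.2. EEF1A1, EEF2, EEF1D and EIF3H, 4 of the 7 TOP factors, were among those below all others, near the share of all 45 factors (51.1%). EEF1B2, EIF3F and EIF4B, also TOP factors, lay within the range of the other inputs. Results that use the cytosol lysates are therefore given with and without this lysate.

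**Figure D1:**
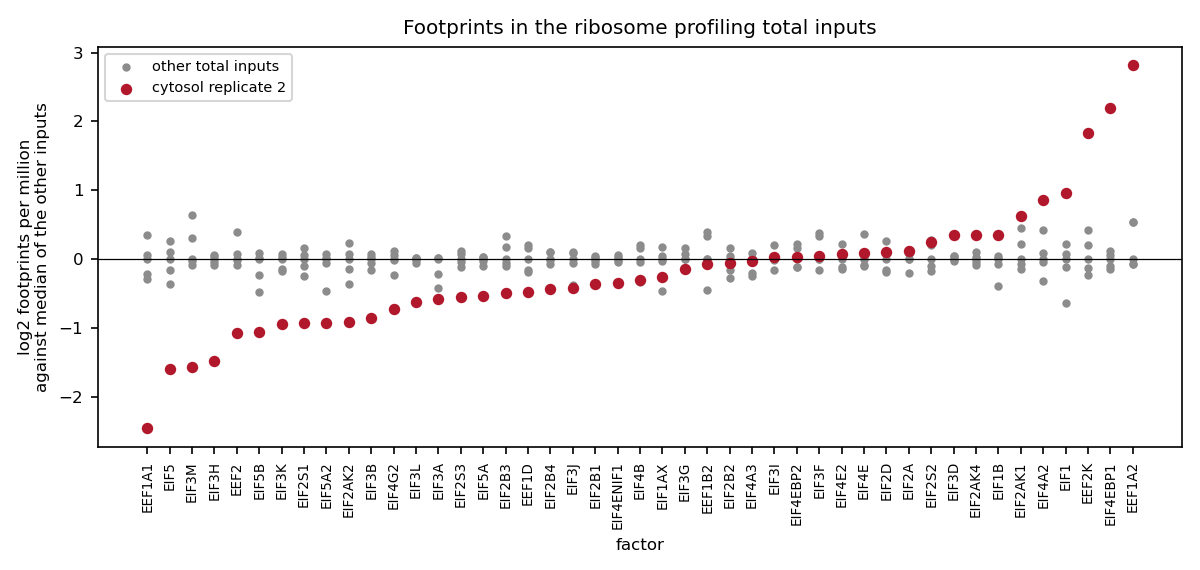
Footprint levels in the 6 ribosome profiling total inputs, as log2 of CPM against the median of the other inputs (vertical axis), for each of the 45 factors (horizontal axis). Red points are cytosol replicate 2, which had 23 factors below and 9 above all of the other 5 inputs, EEF1A1 at 394 against 1775 to 2772 footprint CPM.

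Footprints were then set against mRNA in total inputs to see which factors carried many or few ribosomes per mRNA. On the log2 scale centred on the median of all genes, 24 of 45 factors were higher and 5 were lower, where 33.6% of all genes were higher and 34.3% lower, and the median factor stood at 0.65. Highest were EEF1A1 at 3.19 ± 0.29 (SE, adjusted p = 6.7e-05, edgeR), the eIF3 subunit EIF3F at 2.24 ± 0.16, the scanning factor EIF1AX at 2.20 ± 0.23, EIF4A3, a helicase of the exon junction complex, at 2.104 ± 0.15 and the eIF2B subunit EIF2B2 at 1.92 ± 0.16. By role, 8 of 11 eIF3 subunits were higher with a group median of 1.40, as were all 3 scanning factors with 1.35 and 6 of 10 genes of the eIF2 group with 0.55, of which 5, 1 and 5 remained higher with mRNA per kb of coding length. Lowest were EEF2K, the kinase that inactivates eEF2, at -2.27 ± 0.21 (adjusted p = 8.3e-05), 2 kinases of eIF2, EIF2AK1 at -1.56 ± 0.19 and EIF2AK4 at -1.38 ± 0.14, then EIF4G2, an eIF4G homologue without the eIF4E site, at -1.20 ± 0.16 and EIF4B at -0.94 ± 0.17. Thus 3 of the 4 kinases among the factors were in the lower group, and the fourth, EIF2AK2, was at 0.17 ± 0.18. With mRNA per kb of coding length EIF2AK2 was lower as well, at -0.75 ± 0.18. EEF2 (-0.06), EIF5B (-0.08), EEF1B2 (0.11) and EIF5 (0.25) did not pass the test.

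The length used for mRNA density moved these values. The deposited mRNA densities divide by the whole gene model, which was a median of 4.04 times the coding length of these factors and 14.1 times for EIF3F, 20.8 for the eIF4E inhibitor EIF4EBP2 and 7.26 for EEF1A1. With coding length for both kinds of library, an alternative chosen after seeing the data, 23 factors were higher and 10 lower. Of the 24 and 5 called before, 15 remained higher and 5 remained lower, 9 were no longer called and 0 were called in the opposite direction. EIF3F went from 2.24 to 0.24 and EIF4EBP2 from -0.11 to -2.68, EEF2 went from -0.06 to 1.11, and EEF1A1 kept 2.14. EEF2K stayed at -2.34. Of the scanning factors EIF1 went from 1.35 to -0.15 and EIF1B from 0.86 to 0.19, neither called, and EIF1AX stayed higher at 0.66. Across the 45 factors the log2 length ratio correlated with the difference at 0.45 with gene length and at -0.33 with coding length (Pearson), so neither length removed the relation. The share of pseudogenes was not even among the calls: 6 of the 8 factors with at least 5 named pseudogenes were higher, against 9 of the 21 with none. The part of these in the result was not tested.

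**Figure D2:**
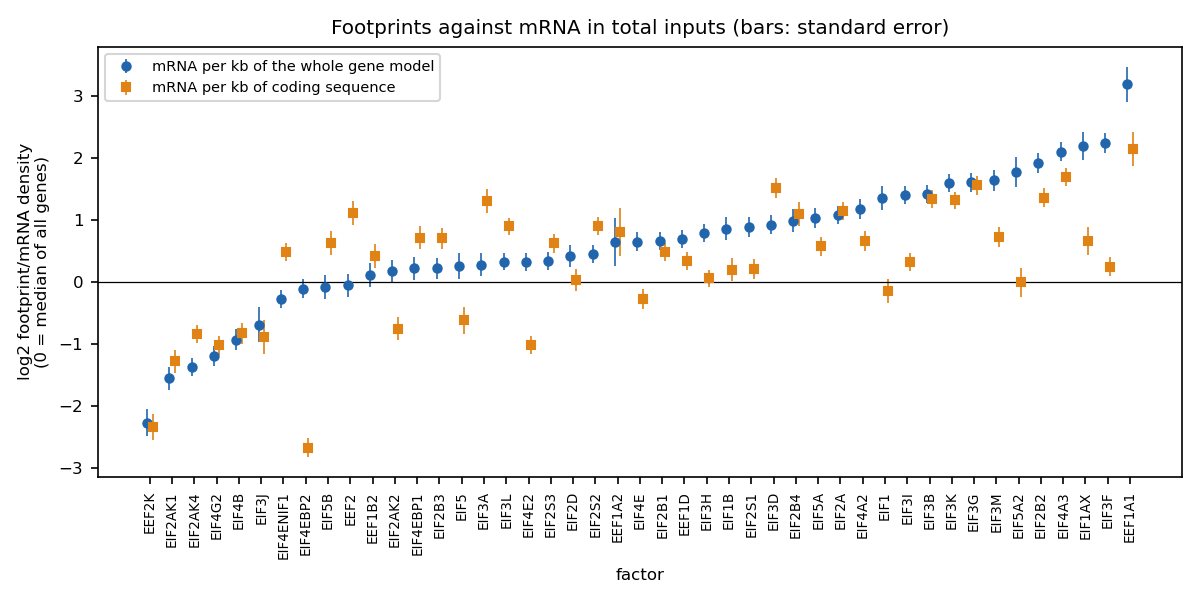
Footprint density against mRNA density in total inputs (log2, 0 is the median of all genes) for the 45 factors, with mRNA per kb of the whole gene model (blue circles) and per kb of coding sequence (orange squares), and standard errors as bars. EEF1A1 is high (3.19 and 2.14) and EEF2K low (-2.27 and -2.34) with both lengths, while EIF4EBP2 falls from -0.11 to -2.68.

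Footprints in the 5′ leader were sparse for most factors. The density of leader footprints was a median of 0.111 of that in the coding sequence over 42 factors with at least 30 countable leader nucleotides, against 0.225 over 6034 genes. EEF2K was the only factor with a median ratio over 1, at 2.50 and with a range of 1.32 to 3.96 over the 6 total inputs, on 56 to 189.7 leader footprints each. This was percentile 98.0 of all genes, and 11.9% of all genes were over 1. EIF2D, which can bring initiator tRNA without eIF2, followed with 0.86 (0.50 to 1.19), on 21 to 106 footprints. EEF2 lay between 0.39 and 0.59 in 5 inputs and at 2.05 in cytosol replicate 2, where EEF2 coding footprints were 3610.4 CPM against 7157 to 9995 elsewhere. This was not particular to EEF2. In the same input EIF5B was at 1.64 (0.42 to 0.70 elsewhere) and EIF3A at 1.04 (0.30 to 0.55), while EEF2K (1.75) and EIF4EBP1 (0.16) were not at their highest there.

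With the baseline set, enrichment was compared by location. At the ER nearly all factors were depleted: 42 of 45 were lower and 1, EEF2K, higher, where 72% of all genes were lower and 19.9% higher. The median factor stood at -0.83 and the median gene at -0.68, and 29 factors lay below that median gene. Values scaled by library totals include a shift of the median gene, so each location was also scaled with TMM, which moved the median gene up by 0.65 at the ER, 0.32 at the OMM, 0.30 in wild-type RNA-seq and 0.12 in AKAP1 null RNA-seq. With TMM the split at the ER was 18 lower and 5 higher (EEF2K, EIF2AK1, EIF3I, EIF3K and EIF4EBP1), and the median factor stood at -0.18. For enrichment, the shares of all genes given here and below come from the fit with library totals and all lysates. They do not apply to counts with TMM, by DESeq2 or with lysates left out.

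At the OMM the factors split. Of 45, 9 were higher and 20 lower, where 17% of all genes were higher and 45.9% lower. The medians were -0.25 for the factors and -0.38 for all genes. With TMM the split was 13 higher and 14 lower, the same 9 among the 13, and the median factor turned to 0.07. The 9 were EIF1B, EIF3G, EIF1, EIF4EBP1, EIF3K, EIF5A, EEF1B2, EIF4E2 and EIF3M, spread over scanning, eIF3, cap binding and elongation. Leaving out OMM replicate 2, the better covered pulldown, left 8 higher and 15 lower. Wherever a lysate is left out, its group rests on 1 lysate, which is assumed to vary like those of the other groups, so calls kept or gained in this way are no check of the replicates. In the cytosol, which serves as the reference location, 5 factors were lower and 0 higher, where 5.95% of all genes were lower and 2.04% higher; at an unadjusted p below 0.05 it was 11 lower and 3 higher, and DESeq2 called 4 lower and 0 higher. The factors depleted were EIF3L at -1.79 ± 0.20, EEF1A2 at -0.86 ± 0.16, EIF2A at -0.63 ± 0.14, EEF1B2 at -0.62 ± 0.15 and EIF2AK1 at -0.53 ± 0.11. Without cytosol replicate 2 these 5 kept the call, EIF3A and EIF4E were added, and EEF1A1 and EIF2B4 were called higher. Without cytosol replicate 1 the calls of EIF2A and EEF1B2 were lost, EIF3F and EIF3G were called lower, and EIF1, EIF3M and EIF5A higher.

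The mRNAs pulled down at the OMM of wild-type cells split in the same manner. RNA-seq called 13 factors higher and 17 lower, where 20.2% of all genes were higher and 45.6% lower, with medians of -0.08 and -0.28, and TMM gave 21 higher and 6 lower with a median factor of 0.21. Without wild-type replicate 1 the counts were 10 and 10, and without replicate 2 they were 10 and 7. Footprints and mRNA come from separate libraries. Each of the 9 factors higher in OMM footprints was also higher in mRNA. Of the 20 lower in footprints 12 were lower in mRNA and 8 were not called. The same overlap over all genes was not counted, so it cannot be read as particular to the factors. Over all protein-coding genes tested, both enrichments correlated with log2 coding length at -0.56 (Pearson).

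**Figure D3:**
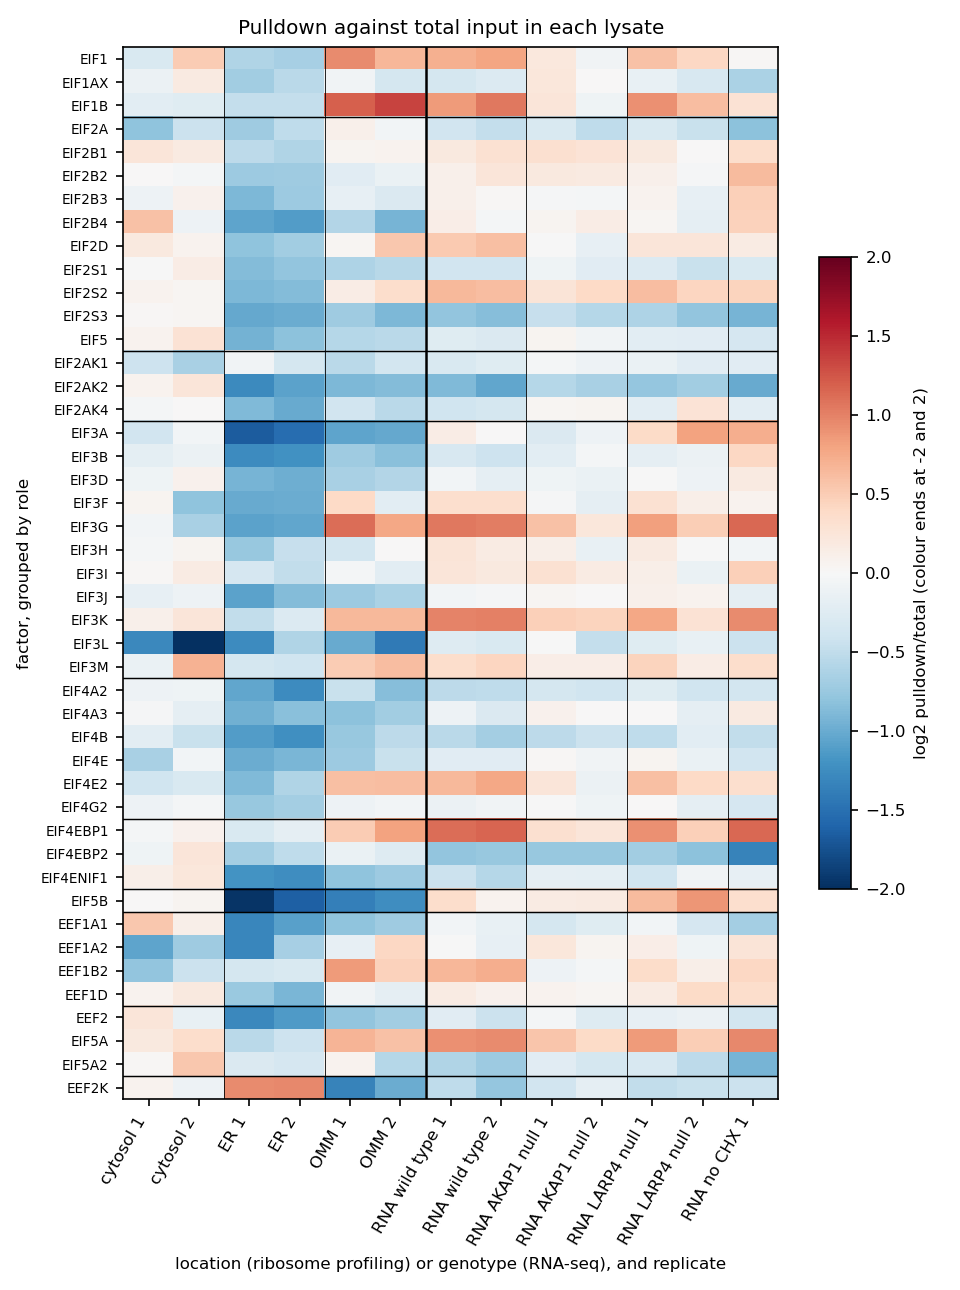
Enrichment (log2 pulldown/total, colour) of the 45 factors (rows, grouped by role and separated by lines) in each lysate (columns: 2 each for cytosol, ER and OMM footprints and for wild-type, AKAP1 null and LARP4 null RNA-seq, 1 without CHX). The ER columns are blue for all but EEF2K (0.94 and 0.96), and in the OMM columns EIF1B is highest (1.19 and 1.35), EIF5B is lowest in replicate 1 (-1.36) and EIF3L in replicate 2 (-1.41).

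Among the scanning factors, EIF1 and its near-duplicate EIF1B carried the OMM signal. EIF1B (ENSG00000114784, GRCh38 chr3:40309707-40312424, plus strand) had 98.9 and 134 footprint CPM in OMM total inputs and 226 and 341 in the pulldowns. Both pulldowns were above both total inputs, an enrichment of 1.28 ± 0.11 (adjusted p = 2.0e-08, edgeR). The enrichment at the OMM exceeded that in the cytosol by 1.501 ± 0.14, and the mRNA was enriched in wild-type cells by 0.96 ± 0.12, from 76.2 and 66.7 to 137.9 and 138.8 mRNA CPM. EIF1 had 187 and 269 footprint CPM in the inputs and 361 and 428 in the pulldowns (0.80 ± 0.15), and its mRNA rose by 0.75 ± 0.10. EIF1AX, which binds the same ribosomal subunit next to eIF1, was at -0.24 ± 0.12 in OMM footprints (adjusted p = 0.10) and was lower in mRNA at -0.32 ± 0.10. All 3 were lower at the ER, from -0.63 to -0.48, a group median that TMM puts at 0.02.

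None of the 10 genes of the eIF2 group, which brings and recycles the initiator tRNA, was higher at the OMM, where 17% of all genes were, and 4 were lower, where 45.9% of all genes were. The γ subunit EIF2S3 was at -0.82 ± 0.10 in OMM footprints and -0.82 ± 0.09 in mRNA, and the α subunit EIF2S1 at -0.58 ± 0.10 and -0.38 ± 0.09. The β subunit EIF2S2 went the other way in mRNA, with 210 and 228 mRNA CPM in wild-type total inputs and 329 and 349 in the pulldowns (0.63 ± 0.09), and stood at 0.26 ± 0.11 in footprints (adjusted p = 0.056). So 3 subunits of 1 complex had different values in the same pulldowns. EIF2D behaved like EIF2S2, at 0.32 ± 0.14 in footprints (adjusted p = 0.052) and 0.56 ± 0.08 in mRNA, and with TMM EIF2B1, EIF2D and EIF2S2 were called higher in OMM footprints. EIF5 was at -0.56 ± 0.10 and EIF2B4, with a countable share of 22.9%, at -0.83 ± 0.26. At the ER all 10 were lower, from -1.08 to -0.56, of which 4 held with TMM.

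Of the kinases of eIF2α, which shut down initiation under stress, EIF2AK2 lay well below the median gene at the OMM. All 3 measured were called lower in footprints and in mRNA, as were 45.9% and 45.6% of all genes, and with TMM only EIF2AK2 kept the call in either. EIF2AK1 and EIF2AK4 stood close to the median gene, at -0.07 and -0.10 from it in footprints and 0.01 and -0.09 in mRNA, and EIF2AK2 at -0.51 and -0.68. EIF2AK2, activated by double-stranded RNA, had 165 and 223 footprint CPM in the inputs and 87.8 and 122 in the pulldowns (-0.88 ± 0.12), and its mRNA fell by 0.97 on the log2 scale (SE 0.09), the largest fall of the 45. EIF2AK1, the haem-regulated kinase, was at -0.45 ± 0.14 and EIF2AK4, activated by uncharged tRNA, at -0.48 ± 0.14. At the ER EIF2AK1 did not pass the test at -0.21 ± 0.11 (adjusted p = 0.081), and was called higher with TMM.

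The 11 measured subunits of eIF3, the scaffold of the 43S complex, ranged from -1.24 to 0.94 in OMM footprints and from -0.37 to 1.03 in wild-type mRNA. At the OMM 3 were higher and 5 lower, in both scalings, beside 17% and 45.9% of all genes. EIF3G had 367 and 328 footprint CPM in the inputs and 794 and 559 in the pulldowns (0.94 ± 0.12), EIF3K 307 and 297 against 479 and 467 (0.65 ± 0.10), and EIF3M was at 0.57 ± 0.15. The 3 were also higher in mRNA, at 1.03 ± 0.12, 1.01 ± 0.12 and 0.39 ± 0.10. EIF3A (ENSG00000107581, chr10:119033670-119080817, minus strand), the largest subunit, had 1482 and 1987 footprint CPM in the inputs and 714 and 976 in the pulldowns (-1.04 ± 0.10), with no overlap between the groups. Its mRNA stood at 0.07 ± 0.12 (adjusted p = 0.59), with 472 and 521 mRNA CPM in total inputs and 522 in both pulldowns. EIF3B (-0.78 ± 0.09), EIF3D (-0.62 ± 0.09), EIF3J (-0.66 ± 0.14) and EIF3L (-1.24 ± 0.24) were the other 4 lower in footprints. EIF3L was depleted in every location, with 138 and 131 footprint CPM in ER inputs against 57.5 and 86.6 in the pulldowns, and 137 and 88.6 in cytosol inputs against 56.1 and 15.6. A share of 20.04% of its coding sequence was countable, and its OMM call was lost without OMM replicate 2 and by DESeq2 (adjusted p = 0.071 and 0.076). All 11 were lower at the ER, whereas TMM left 5 lower and put EIF3I and EIF3K higher.

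In the eIF4 group, whose members bind the cap, form its scaffold or are helicases, 1 of 6 was higher and 3 lower at the OMM, near the 17% and 45.9% of all genes. EIF4E2, a cap-binding homologue of eIF4E that represses translation, had 67.2 and 62.2 footprint CPM in the inputs and 101 and 95.3 in the pulldowns (0.61 ± 0.14), and its mRNA was at 0.72 ± 0.11. EIF4E itself was at -0.57 ± 0.25 (adjusted p = 0.052), from 25.6 and 23.9 footprint CPM to 15.1 and 17.5. EIF4A2, a helicase that unwinds the leader, was at -0.68 ± 0.15, EIF4A3, its relative in the exon junction complex of the nucleus, at -0.76 ± 0.10, EIF4B at -0.62 ± 0.15, and EIF4G2 did not pass the test at -0.08 ± 0.09. With TMM EIF4E2 and EIF4G2 were higher and only EIF4A3 lower.

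The inhibitors of eIF4E parted by gene. EIF4EBP1 was enriched in OMM footprints, from 214 and 198 to 304 and 346 CPM (0.67 ± 0.11), and more so in mRNA, from 76.0 and 101 to 164 and 226 mRNA CPM (1.14 ± 0.11), the largest rise of the 45. EIF4EBP2, a second inhibitor of the same family, was depleted in mRNA by 0.77 on the log2 scale (SE 0.08), from 484 and 504 to 280.0 and 299, and stood at -0.20 ± 0.15 in footprints (adjusted p = 0.26). EIF4ENIF1, which shuttles eIF4E into the nucleus and to P-bodies, was lower in both, at -0.77 ± 0.13 and -0.50 ± 0.10.

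EIF5B (ENSG00000158417, chr2:99337371-99401326, plus strand), the GTPase that joins the subunits, had the lowest footprint enrichment of the 45 at both membranes. In ER lysates 742 and 788 footprint CPM in the inputs fell to 191 and 254 (-1.80 ± 0.10, adjusted p = 1.6e-11), and in OMM lysates 534 and 752 fell to 207 and 317 (-1.30 ± 0.11, adjusted p = 1.7e-08). In the cytosol it was level, with 631 and 354 in the inputs and 633 and 367 in the pulldowns. Its mRNA in the wild-type pulldown was not depleted, at 277 and 294 mRNA CPM in total inputs and 355 and 309 in the pulldowns (0.22 ± 0.10, adjusted p = 0.097), and was called higher with TMM. EIF5B and EIF3A were thus the factors low in OMM footprints and level in OMM mRNA by the widest gap. The difference between footprint and mRNA enrichment was not tested, since they come from separate fits.

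Elongation factors followed the same division. Among eEF1 genes, EEF1A1 was lower at the ER (-1.19 ± 0.10) and at the OMM (-0.76 ± 0.10), with 2772 and 1870.4 footprint CPM in OMM inputs against 1586 and 1139.6 in the pulldowns, and stood at -0.11 ± 0.10 in mRNA. EEF1B2 rose at the OMM from 23.6 and 32.3 to 42.2 and 44.6 (0.61 ± 0.19) and in mRNA from 365 and 401 to 576 and 664 (0.69 ± 0.09), though its footprints come from 25 nucleotides. EEF1D, another subunit of the exchange factor, was at -0.13 ± 0.11 and 0.13 ± 0.09, and EEF1A2 at 0.22 ± 0.28 and -0.08 ± 0.10. EEF2 had 9995 and 7550.4 footprint CPM in OMM inputs and 5766 and 4679.9 in the pulldowns (-0.74 ± 0.09), and was lower in mRNA (-0.33 ± 0.10), a call not made with TMM. EIF5A was enriched, from 661 and 725 to 1059 and 1085 (0.63 ± 0.09) in footprints and from 724 and 807 to 1364 and 1562 (0.93 ± 0.11) in mRNA. EIF5A2 was lower in mRNA, at -0.67 ± 0.10, and did not pass in footprints at -0.36 ± 0.24.

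EEF2K (ENSG00000103319, chr16:22206278-22288738, plus strand) was the exception at the ER. It had 20.3 and 27.2 footprint CPM in ER inputs and 39.0 and 53.0 in the pulldowns, without overlap, an enrichment of 0.95 ± 0.13 (adjusted p = 3.2e-06, edgeR), or 1.599 with TMM. At the OMM the same gene fell from 18.5 and 23.4 to 6.83 and 11.6 (-1.12 ± 0.25), on only 7 and 29 footprints in the pulldowns. In the cytosol it was level (-0.03 ± 0.13). Its mRNA was lower in the OMM pulldown, at -0.64 ± 0.10. These are the lowest footprint densities of the set, and the gene also had the highest density of leader footprints against coding footprints, whose part in the result was not tested. With a minimum 4 times as high EEF2K was not among the genes tested at the ER.

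Against the cytosol, 37 factors were lower at the ER and 2 higher, where 62.6% of all genes were lower and 19.6% higher. With TMM it was 12 lower and 7 higher. The ER and OMM differences use the same cytosol libraries. Largest were EIF5B at -1.83 ± 0.14, EEF1A1 at -1.52 ± 0.14, EIF2B4 at -1.40 ± 0.24, EIF4ENIF1 at -1.39 ± 0.14 and EIF3A at -1.37 ± 0.13, with EEF2K at 0.98 ± 0.19 and EIF3L at 0.84 ± 0.27 on the other side. Without cytosol replicate 2 the counts were 33 and 2, EEF2K and EEF1B2 being those higher, and EIF3L stood at 0.35 (adjusted p = 0.095). The call of EIF2B4 was lost by DESeq2 (adjusted p = 0.066). At the OMM against the cytosol 10 factors were higher and 17 lower, where 16.5% of all genes were higher and 39.7% lower, and TMM gave 14 and 12. EIF1B led at 1.501, followed by EIF3G at 1.28 ± 0.17, EEF1B2 at 1.23 ± 0.24, EEF1A2 at 1.08 ± 0.33 and EIF4E2 at 0.96 ± 0.18. EIF5B at -1.32 ± 0.14, EIF2B4 at -1.15 ± 0.31, EEF2K at -1.10 ± 0.29, EEF1A1 at -1.09 ± 0.14 and EIF2AK2 at -1.03 ± 0.15 were the lowest. Without cytosol replicate 2 it was 11 higher and 16 lower. Leaving out OMM replicate 2 left 5 higher and took away the call of EEF1A2, whose own OMM enrichment was not called and whose cytosolic footprints were depleted.

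Enrichment at the OMM followed coding length in footprints and, less closely, in wild-type mRNA. Factors ranged from 339 to 4947 coding nucleotides, with a median of 1293. Across the 45, log2 coding length and OMM footprint enrichment correlated at -0.62 (Pearson; Spearman -0.62), beside -0.56 and -0.62 over 6739 protein-coding genes, and at -0.64 without EIF2AK4, the longest. The genes share libraries and the values are a description. Among the 15 shortest factors (339 to 960 nucleotides) 8 were higher and 2 lower with a median of 0.61, among the middle 15 it was 1 and 7 with -0.25, and among the 15 longest 0 and 11 with -0.74. Genes of all kinds in the same length ranges had medians of 0.17, -0.33 and -0.69, and 38.5% of those in the shortest range were higher and 69.1% of those in the longest lower. With the coding length listed in the files, which leaves out positions that could not be counted, the factors correlated at -0.48 at the OMM, -0.27 in wild-type mRNA and -0.24 at the ER. In wild-type mRNA the factors correlated at -0.41 beside -0.56 over 12091 genes, and the 15 shortest had 9 higher and 5 lower (47.1% and 20.4% of all genes in that range), the 15 longest 1 and 9 (4.76% and 66.5%). At the ER the values were -0.42 beside -0.13, and in the cytosol -0.11 beside 0.09. The relation was weak among the factors in the other OMM RNA-seq groups. It was -0.20 beside -0.30 in AKAP1 null, -0.18 beside -0.45 in LARP4 null, and -0.06 for the factors without CHX. EIF1B, at 339 nucleotides, was the shortest of the set and the most enriched in OMM footprints, while EIF3A and EIF5B were among the longest. Long genes below the footprint minimum, which are outside these correlations, differed in wild-type mRNA. EIF4G3 (5685 nucleotides) was at 1.05 and EIF4G1 (4818) at 2.07, against the length relation, and EIF2AK3 (3348) was at -0.53.

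**Figure D4:**
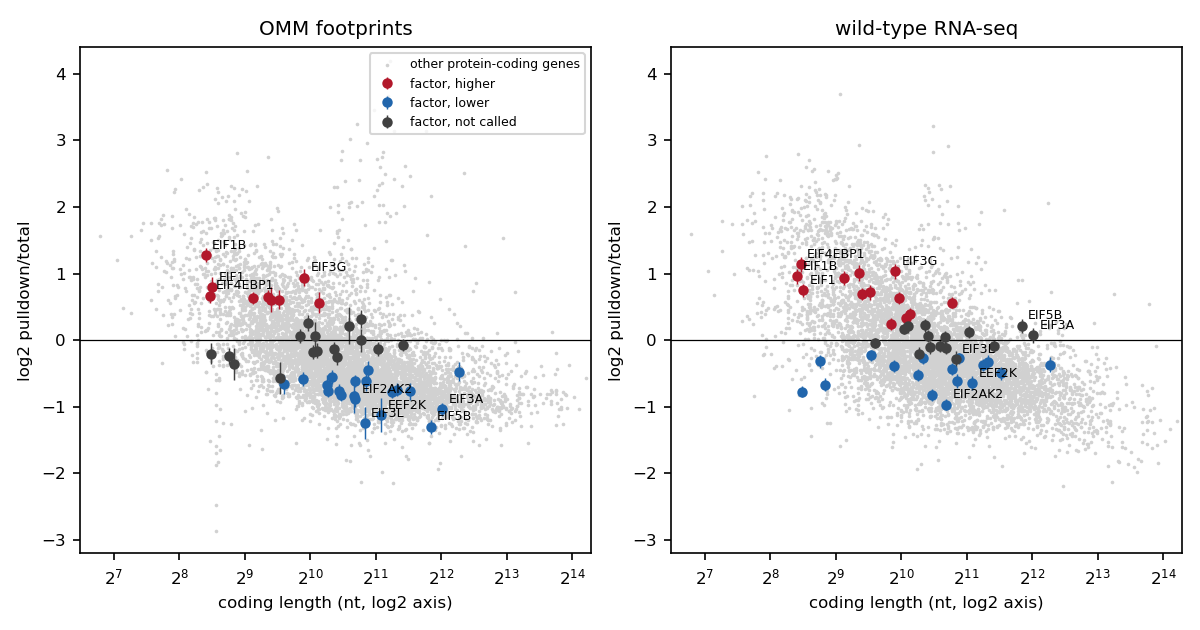
Enrichment (log2 pulldown/total) against coding length (nucleotides, log2 axis) for the 45 factors, coloured by call with standard errors as bars, over all protein-coding genes in grey. At the OMM the 15 shortest factors have a median of 0.61 and the 15 longest of -0.74.

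The null lines were compared to learn which OMM mRNA enrichments change without AKAP1 or LARP4. Total mRNA of the factors did not pass the test in either line: 0 of 45 were called by edgeR or by DESeq2, with 0% of all genes called in AKAP1 null and 0.00715% in each direction in LARP4 null, and at an unadjusted p below 0.05 there were 2 higher and 0 lower in AKAP1 null and 0 in LARP4 null. In AKAP1 null the OMM pulldown held 5 factors higher and 8 lower, where 13.9% of all genes were higher and 28.1% lower, and TMM gave 8 and 4. These counts were unstable. Without AKAP1 null replicate 1 they were 0 and 2, without replicate 2 they were 0 and 1, without either wild-type lysate 2 and 6, and without either LARP4 null lysate 8 and 12. In LARP4 null it was 13 higher and 9 lower, where 22.8% and 30% of all genes were, and TMM gave 15 and 6. Each null is compared with the same wild-type libraries.

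The difference between AKAP1 null and wild type was called lower for 7 factors and higher for 0, where 7.96% of all genes were lower and 6.52% higher. The median factor stood at 0.02 and the median gene at 0.19, and 31 of 45 factors lay below that median gene. TMM, which moved the median gene by -0.17, gave 9 lower and 0 higher and a median factor of -0.15. The 7 were EIF1B at -0.88 ± 0.16 (adjusted p = 0.010), EIF4EBP1 at -0.86 ± 0.16 (0.0093), EEF1B2 at -0.76 ± 0.13 (0.0073), EIF1 at -0.68 ± 0.14 (0.016), EIF2D at -0.65 ± 0.12 (0.0098), EIF4E2 at -0.65 ± 0.16 (0.029) and EIF3G at -0.63 ± 0.17 (0.039). The difference uses the wild-type libraries that also give the wild-type enrichment. Across the 45 factors this difference correlated with log2 coding length at 0.45, beside 0.52 over 12091 protein-coding genes (Pearson). All of the 7 but EIF2D (1752 nucleotides) lay in the shortest range of 339 to 960 nucleotides. Calls among all genes of that range were not counted for this difference, so the 7 cannot be read as particular to the factors. EIF1B mRNA CPM went from 64.6 and 70.4 in AKAP1 null total inputs to 76.1 and 66.1 in the pulldowns, so that the groups overlapped, unlike in wild type. EIF1 went from 517 and 541 to 596 and 517, EEF1B2 from 451 and 385 to 421 and 375, and EIF4EBP1 from 78.1 and 72.9 to 97.2 and 86.1. EIF4EBP2, depleted in wild type, was depleted as much in AKAP1 null (-0.75 ± 0.08), and the difference was 0.02 ± 0.12.

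The spread in this comparison is shared with the LARP4 null lysates, whose replicates differed by an SD of 0.42 on the log2 scale over all genes against 0.21 in wild type and 0.24 in AKAP1 null. With both LARP4 null lysates left out, 12 factors were lower and 7 higher (EEF2K, EIF1AX, EIF2AK2, EIF2AK4, EIF2S3, EIF4ENIF1 and EIF5A2), a choice made after seeing the data. The shares of all genes called in that setting are not given, so these counts cannot be read as particular to the factors. The 7 lower were all among the 12. Without either wild-type lysate, or without AKAP1 null replicate 2, 0 were called, and without AKAP1 null replicate 1 the calls left were EIF1B and EIF2D.

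For LARP4 null against wild type 0 factors were called by edgeR, with 0% of all genes called in either direction, and 3 higher and 4 lower at an unadjusted p below 0.05. DESeq2 called 3 lower, EEF1B2, EIF3K and EIF4EBP1. The widest differences were EIF5B at 0.54 ± 0.15 (adjusted p = 0.28), EIF3A at 0.52 ± 0.16 (0.30) and EIF3K at -0.48 ± 0.16 (0.30). Within the null line itself EIF5B was higher in the pulldown at 0.76 ± 0.10, with 285 and 371 mRNA CPM in total inputs and 442 and 685 in the pulldowns, and EIF3A at 0.60 ± 0.12. Without LARP4 null replicate 1, the lysate that resembles the others, 5 factors were called higher and 7 lower, and without replicate 2, 0 were.

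**Figure D5:**
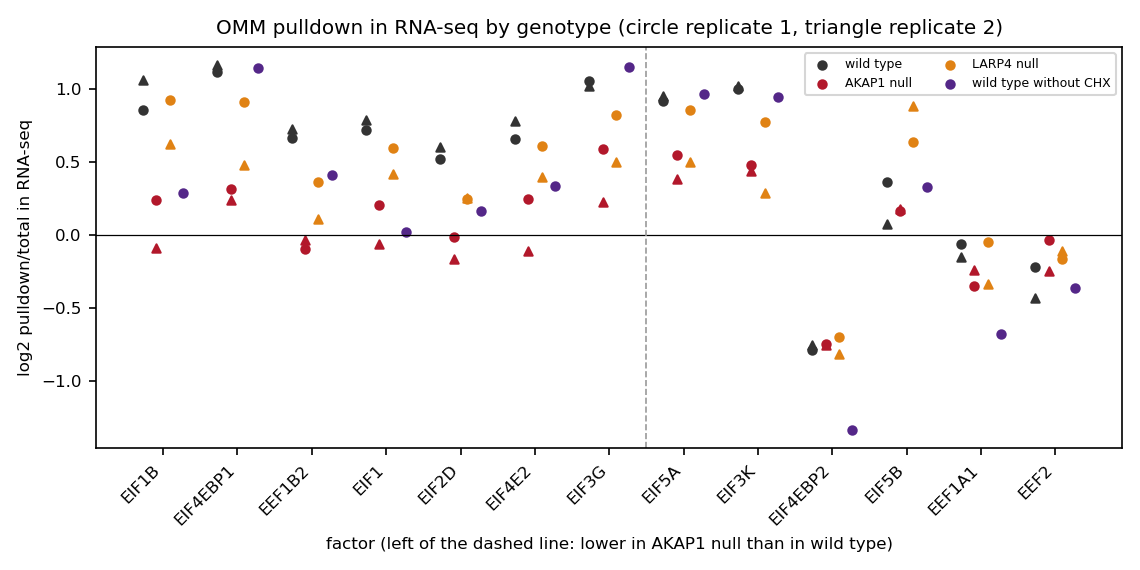
Enrichment in OMM RNA-seq (log2 pulldown/total) of factors (horizontal axis) in wild-type, AKAP1 null and LARP4 null cells, each replicate as a point. Left of the dashed line are factors lower in AKAP1 null than in wild type, such as EIF1B with 0.86 and 1.06 in wild type and 0.24 and -0.09 in AKAP1 null.

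Cells without cycloheximide were also labelled with biotin and light for a shorter time by the study's protocol, so the drug and the labelling time cannot be told apart. With 1 replicate and so no test, 20 factors of this lysate lay above both wild-type values, 20 below both and 5 between, with a median difference of -0.04, whereas over 12098 genes 7247 lay above and 3272 below and the median difference was 0.15. EIF1 was at 0.02 against 0.72 and 0.78, and EIF1B at 0.28 against 0.86 and 1.06. EIF4EBP1 was level, at 1.14 against 1.11 and 1.16, and EIF3G at 1.15 against 1.05 and 1.02. In the other direction EIF3A was at 0.73 against 0.14 and 0.00 and EIF3B at 0.41 against -0.33 and -0.41.

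Other genes of cytosolic translation, listed outside the symbol rule, were termination and recycling factors, poly(A)-binding proteins and their partners, helicases, enzymes that modify eEF2 and eIF5A, and kinases of the mTOR pathway. Of the 26 tested, 3 were higher and 14 lower at the OMM with a median of -0.45, beside 17% and 45.9% of all genes. At the ER 24 were lower, beside 72%, and in wild-type mRNA 6 were higher and 6 lower, beside 20.2% and 45.6%. The 7 factors of mitochondrial translation, whose products work inside the organelle, had 5 higher and 0 lower in OMM footprints (17% and 45.9% of all genes) with a median of 1.90, and 7 of 7 higher in mRNA (20.2% of all genes) with 1.24. The 7 TOP factors had 1 higher and 3 lower at the OMM and 2 higher and 2 lower in mRNA.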

How the data were processed

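Per the labels and the study's methods, ribosome-protected fragments of 12 libraries were aligned with Bowtie and TopHat and assigned with plastid on GRCh38. Footprints of 27 to 36 nucleotides were used, with 13 nucleotides ignored at each end. The authors deposited estimated counts of coding and 5′ leader footprints for 58849 entries, of which 1079 hold several genes, together with RPKM of the coding sequence. For RNA-seq, counted with featureCounts after STAR, the authors deposited whole read pair counts for 60663 genes and a density score, 10 times the usual FPKM, which was divided back.

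Estimated counts were rounded and tested with edgeR 4.0.16 (R 4.3.3, quasi-likelihood) in 1 fit per assay, with a term per lysate, a pulldown effect per group and library totals as sizes. Footprint comparisons covered genes with at least 64 counts in each total input of the locations compared, and RNA-seq comparisons those with a mean of at least 64 counts over the libraries of the fit or, for footprints against mRNA, in both kinds of library, with Benjamini-Hochberg adjustment over all of them. Standard errors come from the fold change and its F statistic. Total inputs used TMM, and footprints against mRNA used the 2 OMM and 2 wild-type total inputs with offsets for length, centred on the median gene. Values per lysate add 0.5 counts before log2. Spreads are SDs over 2 replicates. The labels number the replicates without naming separate cultures for RNA-seq, so those p-values measure the spread between these samples, which may be technical.

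The members and gene lists were chosen with earlier results of these data known. Genes named in each comparison were up to 5 of the largest rises and falls that passed the threshold of 0.05 and agreed in sign between replicates, a standing list of well-known factors, AKAP1, LARP4 and members with reads shared with near-identical genes. Genes beyond this rule were named after their values were seen, as examples of their role group. Alternatives were TMM, DESeq2 1.42.0, a minimum of 10 and one 4 times as high, fits without the lysate term and leaving out each lysate, with 2 groups alone, coding length and the left-out lysates of the other null line added after seeing the data. The edgeR fits were also run on simulated data made from genes of higher counts than the minimum of 64, with the same spread for every lysate. The real lysates differed in spread, so that run is no check of the calls given here.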

Additional observations from a re-analysis of the deposited data

Results flagged for a closer look

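Pulldown enrichment that differed between locations or genotypes by a test of the difference itself was looked at again, for the largest differences of each comparison. At the ER against the cytosol these were EEF2K (0.98) and EIF3L (0.84) on the higher side and EIF5B (-1.83), EEF1A1 (-1.52), EIF2B4 (-1.40), EIF4ENIF1 (-1.39) and EIF3A (-1.37) on the lower side. At the OMM against the cytosol they were EIF1B (1.501), EIF3G (1.28), EEF1B2 (1.23), EEF1A2 (1.08) and EIF4E2 (0.96), and on the lower side EIF5B (-1.32), EIF2B4 (-1.15), EEF2K (-1.10), EEF1A1 (-1.09) and EIF2AK2 (-1.03). Both use the cytosol libraries, of which replicate 2 stood apart. In AKAP1 null against wild-type mRNA they were EIF1B (-0.88), EIF4EBP1 (-0.86), EEF1B2 (-0.76), EIF1 (-0.68) and EIF2D (-0.65). EEF2K was thus higher at the ER and lower at the OMM than in the cytosol, on 17.2 to 27.2 footprint CPM in the total inputs other than cytosol replicate 2. Its OMM pulldowns held only 7 and 29 footprints.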

How the results depend on the processing

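For the factors picked by the naming rule in each comparison, 601 of 690 alternative values kept their direction and call, 89 kept the direction and lost the call, and 0 changed sign. Over all called factors 2229 of 2706 alternative values kept the call and 42 changed sign, by TMM, DESeq2 or the coding length, 4 of them with a call in the other direction. These were EIF3I, EIF3K and EIF4EBP1, lower at the ER and higher with TMM, and EIF4EBP1 also by DESeq2. Counts of factors moved more, mostly with scaling. Higher and lower counts by DESeq2 were 3 and 15 at the ER, 13 and 11 at the OMM, 5 and 10 for ER against cytosol, 13 and 8 for OMM against cytosol, 22 and 6 in wild-type mRNA, 9 and 4 in AKAP1 null, and 0 and 3 for LARP4 null against wild type. With TMM they were 5 and 18 at the ER, 7 and 12 for ER against cytosol, 21 and 6 in wild-type mRNA and 8 and 4 in AKAP1 null. A minimum 4 times as high left 0 higher at the ER and 1 for ER against cytosol, and 3 lower in the cytosol, and a minimum of 10 gave 1 higher in the cytosol. With no replicate block (no lysate term), which ignores that a pulldown comes from the same lysate as its input, 0 were higher at the ER, 3 higher and 5 lower at the OMM, 0 lower in the cytosol, 0 higher and 10 lower for ER against cytosol, 1 and 0 for OMM against cytosol, 10 lower in wild-type mRNA, 0 and 4 in AKAP1 null, 7 and 3 in LARP4 null, and 0 lower for AKAP1 null against wild type. Wild-type and AKAP1 null libraries alone gave 8 higher in AKAP1 null, and 7 higher and 12 lower for the difference. With coding length for both kinds of library 10 factors were lower in footprints against mRNA, and the coding length listed in the files gave a correlation with enrichment of -0.48 at the OMM, -0.24 at the ER, 0.19 in the cytosol, -0.27 in wild-type mRNA and -0.05 in AKAP1 null. The cause of these moves was not tested.

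Leaving out 1 lysate of the groups compared gave 2 to 3 higher in the cytosol, 7 to 10 lower in wild-type mRNA and 0 to 0 higher and 1 to 2 lower in AKAP1 null. Leaving out any 1 lysate of the same assay gave 0 to 3 higher in the cytosol, 10 to 17 higher and 7 to 19 lower in wild-type mRNA, 0 to 8 higher and 1 to 12 lower in AKAP1 null, 1 to 3 higher for ER against cytosol, 5 to 11 higher for OMM against cytosol, 0 to 7 higher and 0 to 12 lower for AKAP1 null against wild type, and 0 to 5 higher and 0 to 7 lower for LARP4 null against wild type. Samples of different groups with the same number were compared by how their deviations correlated. The values were 0.23, 0.34 and -0.16 among RNA-seq total inputs and 0.06 between OMM footprints and wild-type mRNA. With 2 replicates a group, these values cannot tell whether samples with the same number share a batch. With a replicate block the total inputs gave 0 calls, and footprints against mRNA 25 higher and 6 lower. With 2 replicates a group, and 1025114 footprints in the smallest pulldown, small differences were not detectable.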

Other observations

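EIF4G1, the scaffold that joins the cap-binding protein to eIF3, fell below the footprint minimum but was counted in RNA-seq. Its mRNA went from 911 and 855 mRNA CPM in wild-type total inputs to 4173 and 3269 in the OMM pulldowns (2.07 ± 0.10). In AKAP1 null the enrichment was 1.199 and 1.22 in the 2 lysates, a difference from wild type of -0.86 ± 0.14 (adjusted p = 0.0046, edgeR), in LARP4 null 2.07 and 2.19, and without cycloheximide 0.40 in 1 lysate. EIF4G3, its homologue, was at 1.05 in wild type and -0.30 without cycloheximide, which has no replicate and no test and was labelled for a shorter time, so that drug and labelling time cannot be told apart. Both genes were chosen after their values were seen.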
